A study of Mus musculus with 27 samples.

Results

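Whole pancreata of mouse embryos at embryonic day E15.5 that carry the Nkx2.2 SD-domain mutation were compared with control pancreata by RNA sequencing. The comparison takes every embryonic pancreas library of the study, 7 of its 27 samples: 3 controls, described in the design text as wildtype, and 4 mutants, called SDmut in that text. The labels name no strain, sex, litter, zygosity, Cre driver or pooling of embryos for these libraries, and the number in each title, as in Control_8627_D, has no stated meaning. Replicates are separate samples by their labels, so the p-values measure the spread between these samples. The remaining samples of the study are adult islets, neural progenitors and chromatin samples of the MIN6 beta-cell line, and they enter here only where named.

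Nkx2.2 is a homeodomain transcription factor of the NK2 class that is expressed in the pancreatic epithelium and then in endocrine precursors and most islet cell types. Endocrine cells arise from precursors that transiently express Neurog3 and then take on a beta (insulin), alpha (glucagon), delta (somatostatin), epsilon (ghrelin) or PP (pancreatic polypeptide) identity. Mice without Nkx2.2 form no beta cells and have many ghrelin cells. The SD domain is a short stretch outside the homeodomain that is shared by NK2 proteins, and the comparison asks which transcripts differ in the developing pancreas when it is mutated.

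The libraries held 38447596 to 41840638 counts. Levels are given as counts per 1000000 counts, with libraries scaled by the trimmed mean of M-values (CPM); they are not divided by gene length and so are compared between libraries, not between genes. No pair of libraries agreed within counting noise. Striated muscle RNA was present in control 3 (Control_8627_D) and SDmut 2 (Mutant_8640_F), where 29 muscle genes summed to 9553 and 10785 CPM against 94.5 to 228 CPM in the other libraries. A 5-gene gut epithelium set summed to 95.4 CPM in SDmut 2 and to at most 7.62 CPM elsewhere. Liver genes summed to 1780 CPM in SDmut 1, 781 CPM in control 3 and 191 CPM in SDmut 2 against 33.0 to 123 CPM in the rest, and 6 sympathetic neuron genes summed to 348 CPM in control 2 against 31.5 to 124 CPM. Xist lay at 1574, 699.7 and 790.9 CPM in control 2, SDmut 2 and SDmut 4 and under 1 CPM in the others, so libraries with and without it are in both groups.

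**Figure D1:**
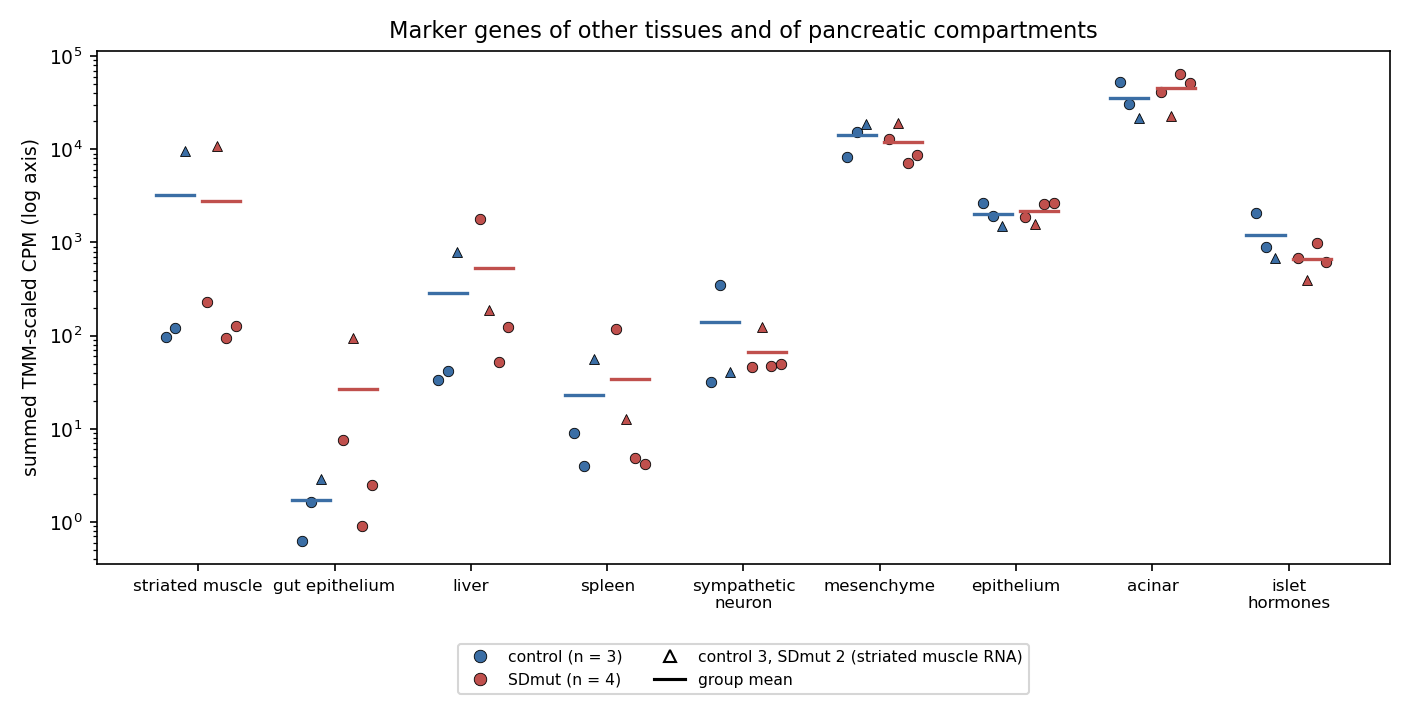
Summed CPM (log axis) of marker gene sets in each of the 7 libraries, with controls in blue, SDmut in red, lines at group means and triangles for control 3 and SDmut 2. Striated muscle genes separate the triangles from the other libraries in both groups, while acinar genes, epithelial genes and mesenchyme genes overlap between the groups.

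The insulin genes and Glp1r were far lower in every SDmut pancreas than in every control. A small set of other beta-cell genes was also lower in every SDmut pancreas, with the groups closer together. The ghrelin gene and the ghrelin acyltransferase Mboat4 were higher. Neither of the tests described next was passed by the genes of ghrelin, glucagon, somatostatin and amylin, or by Neurog3, Pdx1 and Nkx6-1. The ductal and mesenchymal genes, and the acinar genes other than Pla2g1b, did not pass them either. Among 18723 genes tested with edgeR, the adjusted p (Benjamini-Hochberg) was under 0.05 for 1 gene, 0.00534% of those tested. DESeq2, run as an alternative, called 25 of 27813 genes (0.0899%), 15 lower (0.0539%) and 10 higher (0.036%). Without control 3 and SDmut 2, DESeq2 called 44 genes, and 19 of the 25 were called in both fits with the same sign. Verbs of change are kept below for genes that passed one of these tests, with the tool named. For every other named gene levels are given, and an unadjusted p under 0.05 is a description: 1.78% of all genes had one with a lower level in SDmut and 0.753% with a higher level, 2.54% in all. In whole pancreas, fewer cells of a type and less RNA per cell cannot be told apart.

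Nkx2-2 itself (chromosome 2, 147177546 to 147194243, GRCm38) was at 91.4, 74.5 and 58.7 CPM in controls 1 to 3 and at 54.9, 55.6, 77.0 and 91.2 CPM in SDmut 1 to 4. The groups overlap, with a log2 fold change (SDmut minus control) of -0.10 (SE 0.224, edgeR unadjusted p = 0.657). A count over the whole gene does not show the SD-domain mutation, so it does not check the labels.

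Ins2, one of the mouse insulin genes (chromosome 7, 142678656 to 142743381, GRCm38), stood at 443, 196 and 154 CPM in controls 1 to 3. In SDmut 1 to 4 it stood at 11.7, 8.33, 14.6 and 11.5 CPM. The lowest control was thus more than 10 times the highest SDmut library, and the group means differed 22.9-fold. The log2 fold change was -4.52 (SE 0.403). Its edgeR adjusted p of 0.0608 missed the threshold, and in DESeq2 the gene fell with an adjusted p of 1.66e-31 (1.91e-38 without control 3 and SDmut 2).

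Ins1 (chromosome 19, 52264297 to 52265476, GRCm38) was at 228, 98.9 and 79.9 CPM in controls and at 14.3, 11.2, 21.7 and 12.95 CPM in SDmut. Its means differed 9.01-fold, and it fell in DESeq2 (adjusted p = 6.40e-13). In edgeR the log2 difference was -3.17 (SE 0.405), with an adjusted p of 0.284. Both insulin genes were highest in control 1 and the groups were far apart for each. The balance between them differed too: 100 Ins1 counts went with 195, 198 and 192 Ins2 counts in the controls and with 81.6, 74.6, 67.5 and 89.0 Ins2 counts in SDmut. Ins2 was therefore lower relative to Ins1 by 2.49-fold, beyond the spread in either group. The 2 genes are near-identical in their coding parts and the authors' rule for reads shared by them is not given in the sources used here, so the split between them carries that uncertainty.

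Ghrl encodes ghrelin, the epsilon-cell hormone. It was at 45.3, 21.9 and 18.0 CPM in controls and at 73.3, 47.9, 104 and 61.7 CPM in SDmut. Every SDmut library lay above every control, by 2.53-fold in the mean (log2 fold change 1.34, SE 0.386, edgeR unadjusted p = 0.00951, DESeq2 adjusted p = 0.194). SDmut 2, at 47.9 CPM, is the library with gut epithelium RNA, and the part of that RNA in the Ghrl levels was not tested. Mboat4, which attaches the acyl group that activates ghrelin, was at 3.05, 1.73 and 1.30 CPM in controls and at 5.81, 4.85, 10.6 and 10.1 CPM in SDmut. It rose in DESeq2 (adjusted p = 0.00204, edgeR log2 fold change 1.95, SE 0.424).

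Gcg, the glucagon gene of alpha cells, spread widely within each group, at 928, 337 and 276 CPM in controls and 391, 192, 556 and 320 CPM in SDmut. The groups overlap (log2 fold change -0.49, SE 0.492, unadjusted p = 0.348). Sst, the somatostatin gene of delta cells, was at 59.2, 28.4 and 22.4 CPM in controls and 50.7, 39.5, 70.7 and 56.6 CPM in SDmut (0.57, SE 0.351, unadjusted p = 0.147). Iapp, which encodes the beta-cell peptide amylin, had a log2 fold change of -0.71 (SE 0.426, unadjusted p = 0.137), so it did not follow the insulin genes in size. Ppy, the pancreatic polypeptide gene, was at 21.2, 10.5 and 6.98 CPM against 5.47, 3.55, 8.97 and 4.12 CPM (-1.22, SE 0.45, unadjusted p = 0.0285), and 1 SDmut library lay within the control range. Pyy, a peptide of early islet cells, had a log2 fold change of -0.49 (SE 0.332, unadjusted p = 0.177).

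**Figure D2:**
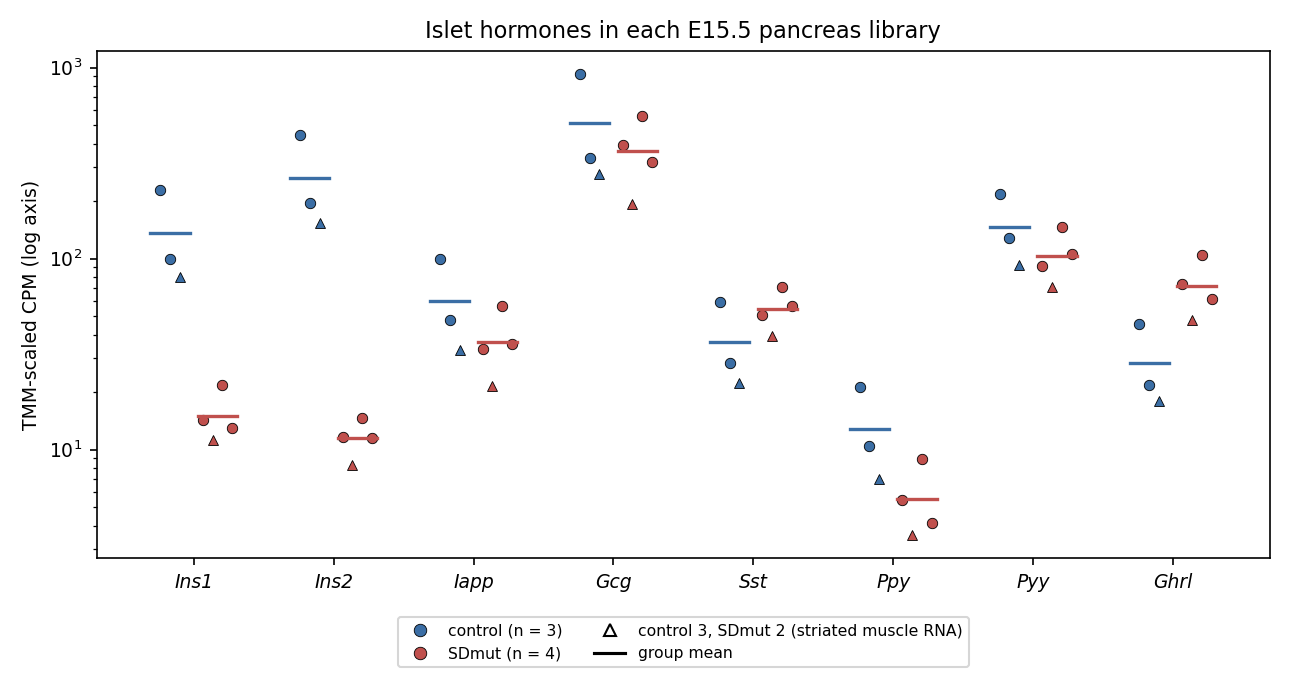
CPM (log axis) of 8 hormone genes in each library, with controls in blue, SDmut in red, lines at group means and triangles for control 3 and SDmut 2. The 4 SDmut libraries lie at 8.33 to 14.6 CPM for Ins2 against 154 to 443 CPM in controls, and Ghrl is the one hormone of the 8 with every SDmut library above every control.

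Much of the spread in the hormone genes was shared by the libraries as a whole: control 1 was the highest control for Ins1, Ins2, Gcg, Sst, Ppy, Pyy and Ghrl, and SDmut 3 the highest SDmut library for the same genes. Hormone counts were therefore also set relative to Gcg counts of the same library, a measure chosen after the data were seen. Per 100 Gcg counts, the controls held 47.7, 58.0 and 55.7 Ins2 counts and the SDmut libraries 2.99, 4.34, 2.63 and 3.60. The controls lay closer together than in CPM, with means of 53.8 ± 5.41 (SD, n = 3) and 3.39 ± 0.747 (SD, n = 4), a 15.9-fold difference against 22.9-fold in CPM.

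On the same measure Ghrl stood at 4.88, 6.48 and 6.54 per 100 Gcg counts in controls and at 18.7, 24.9, 18.8 and 19.3 in SDmut, a 3.42-fold difference in the other direction. Sst stood at 6.38, 8.42 and 8.11 in controls and at 12.96, 20.6, 12.7 and 17.7 in SDmut, 2.09-fold higher with no overlap, although its CPM values overlapped. Ppy stood at 2.28 to 3.10 in controls and 1.28 to 1.85 in SDmut. Iapp (means 12.3 and 10.3) and Pyy (means 31.6 and 29.8) overlapped. With counts of Pcsk2, a prohormone convertase of alpha and other islet cells, as the reference, the ratios of the group means were 16.1-fold lower for Ins2, 6.41-fold lower for Ins1, 3.43-fold higher for Ghrl and 2.07-fold higher for Sst. A ratio shows unequal change of the genes in it and not which of them changed. The smallest 2-sided exact permutation p that 3 libraries against 4 allow is 0.0571, so no p is given for these ratios.

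**Figure D3:**
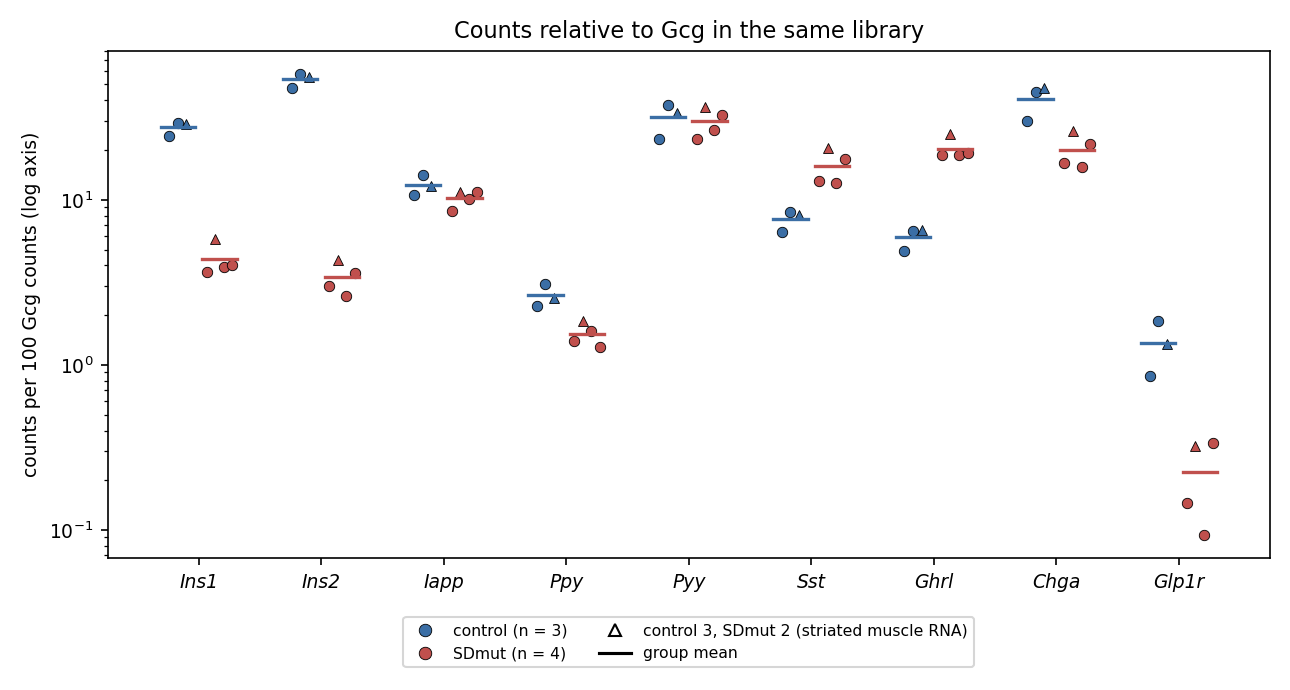
Counts per 100 Gcg counts of the same library (log axis) for 9 genes, with controls in blue, SDmut in red, lines at group means and triangles for control 3 and SDmut 2. Ins1, Ins2, Ppy, Chga and Glp1r lie lower in all SDmut libraries, Sst and Ghrl lie higher, and Iapp and Pyy overlap.

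Of 10 hormone and peptide genes, 4 had a lower level at an unadjusted p under 0.05 (Ins1, Ins2, Npy and Ppy) and 1 a higher level (Ghrl), with a list median of -0.60 against 0.01 over all genes tested. The groups did not overlap for 3 lower and 1 higher genes; 1.97% of all genes tested did not overlap in the lower direction and 1.61% in the higher. Without control 3 and SDmut 2 the 10 genes held 4 lower and 1 higher at that p (0.841% of all genes were higher), and 4 lower and 2 higher did not overlap (7.27% of all genes did not in the higher direction). Npy, a peptide of neurons and of immature beta cells, was at 7.75, 25.5 and 2.78 CPM in controls and at 0.491, 1.73, 0.441 and 0.686 CPM in SDmut. It fell in DESeq2 (adjusted p = 4.65e-05), with a log2 fold change in edgeR of -3.84 (SE 0.827). Control 2, its highest library, is the one with sympathetic neuron RNA; without it the log2 fold change was -2.65. Gip, an incretin peptide gene outside that list, was at 3.59, 2.34 and 1.35 CPM in controls and at 0.336, 0.166, 0.490 and 0.528 CPM in SDmut, and it fell in DESeq2 (adjusted p = 0.000635).

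Beta-cell genes other than hormones held a subset far lower in SDmut beside a larger set that did not pass the test. Of 22 genes, 8 were lower at an unadjusted p under 0.05 and 0 were higher, and the list median was -0.39 against 0.01 over all genes. The groups did not overlap for 6 of the 22, all lower. Without control 3 and SDmut 2, 9 were lower at that p (background 2.43%), 11 did not overlap (background 7.93%), and the median was -0.70. Without control 1, the library richest in hormones, 5 were lower at that p.

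Glp1r, the receptor for the incretin GLP-1, was at 8.00, 6.24 and 3.71 CPM in controls and at 0.568, 0.616, 0.515 and 1.08 CPM in SDmut. All SDmut libraries lay far under the controls, by 8.59-fold in the mean. It fell in DESeq2 (adjusted p = 8.04e-12, edgeR log2 fold change -3.10, SE 0.382, adjusted p = 0.263). Another annotated gene overlaps it, as is also so for Ghrl, Mboat4 and Irs4, and the sources used here do not say whether counting used strand, so reads of overlapping genes may be mixed.

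Mafa, the transcription factor of maturing beta cells that binds insulin gene promoters, was at 17.3, 9.38 and 10.95 CPM in controls. SDmut 1, 3 and 4 held 1.32, 2.01 and 1.79 CPM, and SDmut 2 stood apart at 6.44 CPM. The log2 fold change was -2.12 (SE 0.567; DESeq2 adjusted p = 0.0412), and without control 3 and SDmut 2 it was -2.97 (DESeq2 adjusted p = 1.28e-11). Ppp1r1a, a phosphatase inhibitor enriched in islets, showed the same order: 9.74, 6.42 and 6.77 CPM in controls, 1.497, 1.52 and 1.27 CPM in SDmut 1, 3 and 4, and 3.22 CPM in SDmut 2. Its log2 fold change was -2.02 (SE 0.37; DESeq2 adjusted p = 8.17e-05), and -2.50 without the 2 libraries. SDmut 2 is the mutant library with striated muscle and gut RNA; the part of that RNA in its higher Mafa and Ppp1r1a levels was not tested.

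Sytl4, a granule docking protein also called granuphilin, was at 26.6, 21.0 and 12.7 CPM in controls and at 10.02, 10.99, 9.14 and 10.8 CPM in SDmut. The groups did not overlap (log2 fold change -0.97, SE 0.237, unadjusted p = 0.00394), and it fell in DESeq2 without control 3 and SDmut 2 (adjusted p = 9.03e-06). Slc2a2, the glucose transporter GLUT2, had a log2 fold change of -0.94 (SE 0.337, unadjusted p = 0.0256) and fell in the same DESeq2 fit (adjusted p = 0.0165). The zinc transporter of insulin granules, Slc30a8, had -1.35 (SE 0.476, unadjusted p = 0.0237), the glucose-6-phosphatase subunit G6pc2 had -1.29 (SE 0.454, 0.0231), and Nnat had -0.92 (SE 0.337, 0.0281). Pcsk1, the convertase that processes proinsulin, lay just outside that mark at -0.65 (SE 0.281, unadjusted p = 0.0508).

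Several genes of beta-cell function and identity did not pass the test. Log2 fold changes were 0.09 (SE 0.279) for Abcc8 and 0.27 (SE 0.231) for Kcnj11, the subunits of the ATP-sensitive potassium channel. Pdx1, the pancreatic and beta-cell homeodomain factor, stood at 114, 92.4 and 81.1 CPM in controls and 70.9, 63.0, 108 and 124 CPM in SDmut. Nkx6-1, a beta-cell homeodomain factor that is also on in trunk progenitors, stood at 169, 122 and 116 CPM against 97.1, 92.6, 125 and 145 CPM. Both overlap between groups (log2 fold changes -0.07, SE 0.254, and -0.24, SE 0.199). Ucn3, a marker of mature beta cells, was under 1 CPM in all 7 libraries.

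Among 13 genes of alpha, delta and epsilon cells, 12 were tested, 3 were lower and 2 higher at an unadjusted p under 0.05, and the median was 0.01, the same as over all genes. Acsl1, an acyl-CoA synthetase, was higher in every SDmut library (log2 fold change 0.45, SE 0.151, unadjusted p = 0.0196).

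Pou3f4, an alpha-cell factor also named Brn4, was at 9.84, 5.33 and 4.00 CPM in controls and at 2.76, 2.84, 3.06 and 3.24 CPM in SDmut (log2 fold change -1.10, SE 0.314, unadjusted p = 0.00887). The groups did not overlap for it. Irx1 and Irx2, 2 further alpha-cell factors, had 0.05 (SE 0.391) and 0.52 (SE 0.338), and Hhex, required for delta cells, had -0.04 (SE 0.148). The receptor for ghrelin, Ghsr, had under 0.1 CPM throughout and was not tested.

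Regulators of the endocrine lineage mostly did not pass the test. Of 26 genes, 21 had a negative and 5 a positive log2 fold change, against 8912 and 9811 of the 18723 genes tested. The median was -0.20 against 0.01, and 4 were lower at an unadjusted p under 0.05 and 0 higher. Neurog3, which starts the lineage, was at 77.3, 60.0 and 55.0 CPM in controls and at 45.6, 42.4, 71.1 and 70.1 CPM in SDmut. The groups overlap, and the log2 fold change was -0.16 (SE 0.224). Values for other factors downstream of it were -0.46 (SE 0.244) for Neurod1, -0.31 (SE 0.22) for Insm1, -0.37 (SE 0.253) for Pax4, -0.52 (SE 0.258) for Pax6, 0.37 (SE 0.229) for Isl1, -0.32 (SE 0.249) for Rfx6 and -0.20 (SE 0.245) for Mnx1, each with an unadjusted p above 0.05. Runx1t1, a corepressor of the ETO family, was at 54.3, 57.6 and 54.6 CPM in controls and at 36.1, 41.1, 41.2 and 38.2 CPM in SDmut. Its levels were tight in both groups and it fell in DESeq2 (adjusted p = 0.00791; edgeR log2 fold change -0.50, SE 0.0809). The DESeq2 call was lost without control 3 and SDmut 2 (adjusted p = 0.147). Fev, a factor of endocrine precursors, had -0.65 (SE 0.238, unadjusted p = 0.0277), Myt1 had -0.64 (SE 0.239, 0.0300), and Cbfa2t2 had -0.21 (SE 0.0823, 0.0345).

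All 18 secretory granule and neuroendocrine genes had a negative log2 fold change, some of them near 0, against 8912 of the 18723 genes tested. The median was -0.48 against 0.01, and 4 had an unadjusted p under 0.05. Chga, the granin chromogranin A, was at 279, 152 and 131 CPM in controls and at 65.0, 49.98, 87.6 and 70.2 CPM in SDmut. The groups were well apart and Chga fell in DESeq2 (adjusted p = 0.00273; edgeR log2 fold change -1.46, SE 0.29). Per 100 Gcg counts it stood at 30.1 to 47.5 in controls and 15.8 to 26 in SDmut. On the same measure Chgb overlapped (26.4 to 62.0 and 18.6 to 50.2), as did Mafa (1.87 to 3.97 in controls, 3.35 in SDmut 2 and 0.337 to 0.560 in the other SDmut libraries). Chgb, chromogranin B, was at 245, 209 and 158 CPM against 72.6, 96.5, 113 and 139 CPM (-0.96, SE 0.234, unadjusted p = 0.00401, DESeq2 adjusted p = 0.147). Syt13 (-0.70, SE 0.243) and Syt7 (-0.47, SE 0.163), synaptotagmins of the exocytotic machinery, complete the 4. Other members overlapped between the groups: Cpe, which trims processed hormones, had 0.00 (SE 0.202), Scg2 had -0.10 (SE 0.316) and Pam had -0.04 (SE 0.13). Several of these genes are also neuronal, and control 2 held sympathetic neuron RNA; its part in the list median was not tested.

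**Figure D4:**
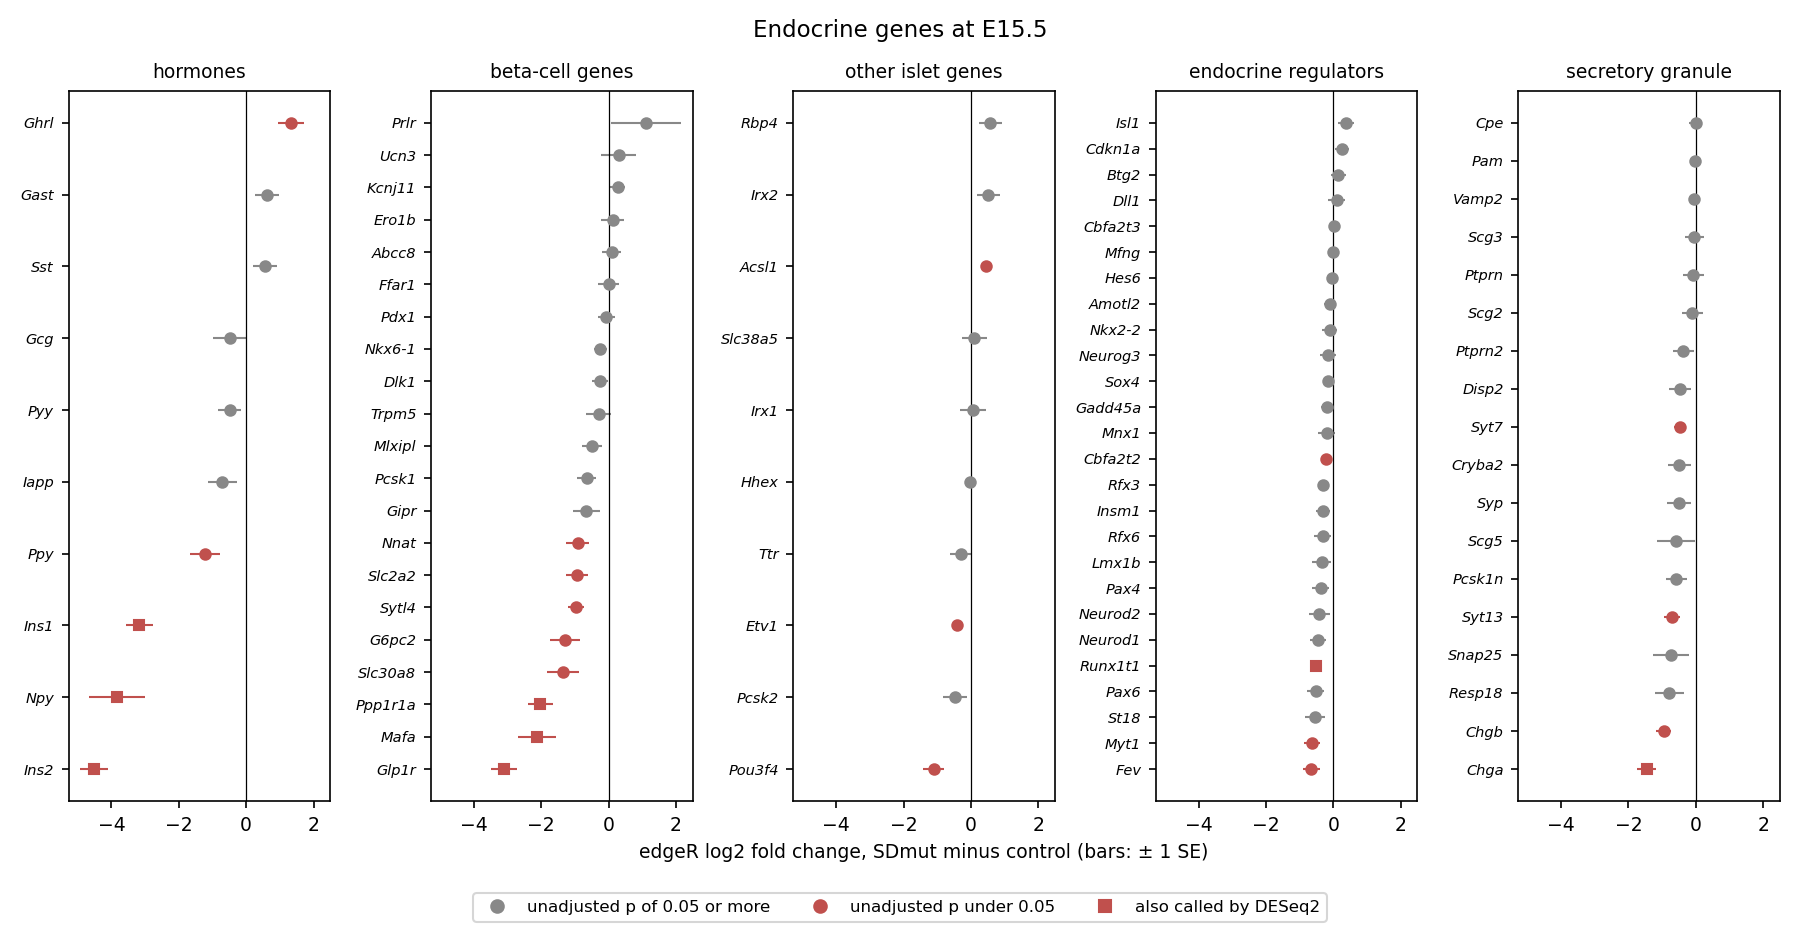
edgeR log2 fold changes (SDmut minus control, bars ± 1 SE) of most tested genes of 5 endocrine lists; red marks an unadjusted p under 0.05 and squares mark genes that DESeq2 also called. Ins2, Npy, Ins1 and Glp1r lie furthest to the left, Ghrl to the right, and most lineage regulators lie near 0.

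Genes outside the lists were among those with the strongest support. Irs4, an insulin receptor substrate (chromosome X, 141710998 to 141725263, GRCm38), was at 4.97, 5.60 and 4.23 CPM in controls and at 19.7, 14.8, 28.9 and 23.3 CPM in SDmut. It rose in DESeq2 (adjusted p = 2.83e-12; edgeR log2 fold change 2.13, SE 0.25, adjusted p = 0.248). Arg1, the arginase of the urea cycle, was at 8.601, 7.87 and 5.45 CPM in controls and at 20.2, 16.4, 29.2 and 21.1 CPM in SDmut. It rose in DESeq2 (adjusted p = 8.62e-06; 1.57, SE 0.246). SDmut 1, at 20.2 CPM, is the library with most liver RNA, and the part of liver RNA in the Arg1 levels was not tested. In neither gene did the groups overlap.

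The single gene past the edgeR threshold, Gm4737, a predicted coding gene on chromosome 16 (46152985 to 46155077, GRCm38), held 1.72, 1.97 and 2.39 CPM in controls and 22.6, 19.1, 31.8 and 23.9 CPM in SDmut. It rose 11.99-fold (log2 fold change 3.58, SE 0.234, edgeR adjusted p = 0.0114). The call held in 13 of 20 alternatives and was lost without control 1 (adjusted p = 0.0644), control 2 (0.219), SDmut 1 (0.0744) or SDmut 4 (0.110), with 0.286 the highest value. Gm38655, a predicted protein-coding gene on chromosome 17, was at 2.11, 1.21 and 1.12 CPM against 4.00, 4.78, 6.74 and 7.41 CPM and rose in DESeq2 (adjusted p = 4.65e-05). Sez6, a neuronal membrane protein gene, rose in DESeq2 from a mean of 2.09 to 4.37 CPM (adjusted p = 0.0165), and Gm7292, a long non-coding RNA, rose from 0.398 to 2.62 CPM (0.00105). Both calls were lost without control 3 and SDmut 2 (adjusted p = 0.344 for Sez6 and 0.0976 for Gm7292). Gm13394, a processed pseudogene that DESeq2 called, was at 114 and 118 CPM in SDmut 3 and 4 and at 0.121 CPM or less in the other 5 libraries, so it separates those 2 libraries and not the groups.

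The lower DESeq2 calls outside the lists had smaller fold changes than the insulin genes. Lrp8, a lipoprotein receptor of the reelin pathway, was at 20.5, 25.4 and 15.8 CPM in controls and at 8.21, 10.5, 8.06 and 8.26 CPM in SDmut (DESeq2 log2 fold change -1.23, adjusted p = 2.80e-05). Papss2, which makes the sulfate donor PAPS, was at 35.3, 26.7 and 51.9 CPM against 20.1, 18.4, 16.4 and 13.6 CPM (-1.14, adjusted p = 0.00994). Its highest library is the muscle-bearing control 3, and the call was lost without control 3 and SDmut 2 (0.125). Pex5l fell by 1.45 on the log2 scale (adjusted p = 3.36e-05), and Gad1, which makes the transmitter GABA in beta cells and neurons, fell by 2.09 (0.0317). Gad1 levels were low, at 1.48, 0.962 and 0.830 CPM in controls and 0.155 to 0.331 CPM in SDmut, so few counts carry its fold change. Without control 3 and SDmut 2 the adjusted p of Pex5l was 0.000832 and that of Gad1 0.125. The groups did not overlap for these 4 genes. Pex5l, Lrp8, Papss2 and Gm13394 were chosen after their values were seen.

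Progenitor factors showed little difference between the groups. Of 19 genes, 0 were lower and 1 was higher at an unadjusted p under 0.05, with a median of -0.02. Sox9, which marks trunk progenitors, was at 164, 126 and 155 CPM in controls and 113, 107, 149 and 179 CPM in SDmut (log2 fold change -0.12, SE 0.196). Ptf1a, the acinar and tip factor, had 0.42 (SE 0.367), Gata4 0.21 (SE 0.263), Foxa2 0.04 (SE 0.262) and Onecut1 -0.27 (SE 0.237). The exception was Nkx6-2, a relative of Nkx6-1, at 17.3, 20.1 and 16.1 CPM in controls and 25.2, 19.1, 65.1 and 58.9 CPM in SDmut. Its higher mean rests on SDmut 3 and 4 (1.24, SE 0.442, unadjusted p = 0.0251), and with control 1, control 2, SDmut 1 and SDmut 2 alone the log2 fold change was 0.24. Of 14 trunk and ductal genes, Bicc1 alone had an unadjusted p under 0.05 (-0.23, SE 0.0738, 0.0157); the cytokeratin gene Krt19 had 0.12 (SE 0.17) and the adhesion gene Epcam 0.07 (SE 0.206).

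Acinar genes varied with the library more than with the group. Their summed level ran from 21504 to 53114 CPM in controls and from 22807 to 64180 CPM in SDmut, lowest in the muscle-bearing libraries of both groups. Of 32 genes, 30 had a positive log2 fold change, against 9811 of the 18723 genes tested. The median was 0.38 against 0.01 over all genes, but 1 had an unadjusted p under 0.05. Carboxypeptidase A1, Cpa1, had 0.30 (SE 0.376), chymotrypsinogen, Ctrb1, 0.48 (SE 0.441), and elastase 1, Cela1, 0.61 (SE 0.393). The exception was Pla2g1b, the secreted pancreatic phospholipase A2, at 2.47, 1.53 and 0.830 CPM in controls and 4.31, 4.26, 6.84 and 5.78 CPM in SDmut. It rose in DESeq2 (adjusted p = 0.0111; edgeR log2 fold change 1.71, SE 0.401), with every SDmut library above every control.

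Genes of stromal and supporting cells mostly overlapped between the groups. Medians were -0.20 for 21 mesenchyme genes, -0.08 for 10 endothelial genes and 0.09 for 7 mesothelium genes, and Thy1 (-0.32, SE 0.133, unadjusted p = 0.0469) was the one gene of these 3 lists under 0.05. Col1a1, a fibrillar collagen gene, varied by library: it was at 1923 CPM in control 1 and 1593 CPM in SDmut 3, the libraries richest in hormones, and at 5274 and 5259 CPM in control 3 and SDmut 2. The neuron and neural crest list had a median of -0.28 with 0 genes under 0.05, and -1.18 with 5 lower genes when control 3 and SDmut 2 were left out, which leaves control 2 as 1 of 2 controls. Red cell and immune genes had a median of 0.63 with 0 genes under 0.05, and 1.18 with 5 higher genes without those libraries, which leaves SDmut 1 as 1 of 3 SDmut libraries. The adult beta-globin gene Hbb-bs was at 2173 CPM in SDmut 1 and at 494 to 1269.7 CPM elsewhere. Of 10 cell cycle genes, Ccnd2 was lower (442, 446 and 446 CPM against 352, 397, 367 and 376 CPM, -0.25, SE 0.0796, unadjusted p = 0.0139) and Ccnb1 higher (0.21, SE 0.0804, 0.0325), while Mki67 had -0.08 (SE 0.18). Among 9 corepressor and chromatin genes, Tle1, a Groucho corepressor, had -0.21 (SE 0.0705, unadjusted p = 0.0194) and the DNA methyltransferase Dnmt3a -0.24 (SE 0.0951, 0.0382), with no overlap between groups.

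The authors' sites of Nkx2.2 binding in MIN6 cells, 6473 in number, were set beside these genes by distance to the nearest annotated transcript start. A site lay within 10 kb for 12.7% of all genes tested and within 100 kb for 51.6%. Both shares were higher for the 15 genes that DESeq2 called lower (46.7% and 80%), the 10 called higher (40% and 80%) and the 22 beta-cell genes (54.5% and 90.9%). The 10 called higher include Gm13394, which does not separate the groups. In the wider sets at an unadjusted p under 0.05, the shares were 21% and 66.2% for the 334 lower genes. For the 141 higher genes they were 14.2% and 56%, close to those of all genes tested. For the 32 acinar genes they were 6.25% and 34.4%. Within 10 kb the share was 50% for hormone genes and for secretory granule genes, and 41.7% for genes of alpha, delta and epsilon cells. It was 23.1% for lineage regulators, 17.9% for striated muscle genes and 0% for mesenchyme genes. MIN6 is a beta-cell line. The part of the cell type in these shares was not tested, and the shares are given without a test. Ins1 had a site 9 bases before its start and Ins2 one 736 bases before its nearest start, within an annotated intron of Ins2. Sites lay 16314 bases before Glp1r and 3652 bases before Chga. Papss2 had one 7867 bases after its start, within an intron. The site before Glp1r lay in an intron of another annotated gene, AC174471.1. By read density that site was at the 99.8th percentile of all sites, and the one 329 bases before Gm38655 was among the densest. The nearest site of Irs4 was 1001309 bases away.

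The sequences at these sites are shown so that the letters under the binding beside the changed genes can be read. They come from the GRCm38 reference, in the direction of the gene, 75 bases to each side of the site or, for Ins1, the 250 bases before its start as RefSeq gives it. Capitals mark AAGTG or its reverse complement CACTT, the core that NK2 homeodomains bind, and GTTGC or its reverse complement GCAAC, the half-site of RFX factors, which was added after the sequences had been seen. Coordinates are chr19:52264047-52264296 (plus strand) for Ins1, chr7:142680387-142680537 (minus) for Ins2, chr17:30885428-30885578 (plus) for Glp1r, chr12:102551242-102551392 (plus) for Chga and chr19:32603582-32603732 (plus) for Papss2.
Ins1: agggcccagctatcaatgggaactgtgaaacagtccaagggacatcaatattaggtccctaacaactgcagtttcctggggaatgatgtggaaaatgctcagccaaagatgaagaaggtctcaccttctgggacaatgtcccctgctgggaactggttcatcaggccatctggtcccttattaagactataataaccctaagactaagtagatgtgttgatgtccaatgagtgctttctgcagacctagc
Ins2: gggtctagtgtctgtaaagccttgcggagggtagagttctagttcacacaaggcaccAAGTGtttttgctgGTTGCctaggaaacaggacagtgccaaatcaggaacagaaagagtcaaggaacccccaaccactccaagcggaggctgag
Glp1r: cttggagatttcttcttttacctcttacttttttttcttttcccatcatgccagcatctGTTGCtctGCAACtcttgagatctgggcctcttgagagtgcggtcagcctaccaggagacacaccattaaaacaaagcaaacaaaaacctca
Chga: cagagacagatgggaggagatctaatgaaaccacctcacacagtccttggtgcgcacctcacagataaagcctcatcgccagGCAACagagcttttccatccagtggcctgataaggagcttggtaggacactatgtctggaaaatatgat
Papss2: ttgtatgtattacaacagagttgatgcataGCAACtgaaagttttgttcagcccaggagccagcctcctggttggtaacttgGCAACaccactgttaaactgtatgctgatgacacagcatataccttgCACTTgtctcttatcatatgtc
Among the sequences shown, the NK2 core was found in the windows of Ins2, 16 bases from the site, and Papss2, 56 bases from it. The other 3 sequences shown held none. Windows of this length around all 6473 sites held it in 32.9% of cases, and stretches of equal length just before RefSeq gene starts in 26.6%. Among the sequences shown, the RFX half-site was found in the windows of Ins2, Glp1r, Chga and Papss2. It was found in 43.7% of all site windows and in 19.7% of the promoter stretches. The windows at Gm38655 and Mboat4, the latter in an exon, were also read and are not shown. Neither held the NK2 core, and they held 1 and 0 RFX half-sites. The central 51 bases of the site windows held the NK2 core in 11.2% of cases and the RFX half-site in 36.3%, and the last 51 bases before RefSeq gene starts in 9.67% and 7.24%. In 250 bases, the length shown for Ins1, 40.7% of RefSeq promoters held the NK2 core and 29.9% the RFX half-site. These are letter matches and not measured sites of either factor.

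Several of the same genes differed in islets of 8-week-old mice with the mutation in beta cells (betaSDmut, 3 libraries against 2 controls). The islets were fitted separately with edgeR over 15413 genes, with tables normalized apart and no test of the difference between ages. The share of those genes that passed at 8 weeks is not reported here, so the passes below have no background beside them. Log2 fold changes at 8 weeks were -1.13 for Chga (adjusted p = 0.00626), -1.20 for Glp1r (0.0115), -0.89 for Slc2a2 (0.0163), -1.12 for Slc30a8 (0.00953) and -1.05 for Gad1 (0.00771). Arg1 had 1.85 (adjusted p = 0.0271). These genes had the same sign at E15.5. Without control 1, however, Slc2a2 and Slc30a8 had an unadjusted p above 0.05 there, and Gad1 was at 1.48 CPM or less in the E15.5 libraries. The insulin genes did not pass at 8 weeks, with -0.20 (SE 0.106) for Ins2 and -0.19 (SE 0.148) for Ins1, and Chgb was higher there (0.66, adjusted p = 0.0247) and lower at E15.5. Sez6 (1.502, adjusted p = 0.0156) also had the same sign, and Nkx6-1 was lower at 8 weeks (-0.91, 0.0174). The islets differ from the pancreata in age and tissue, and the design text gives their mutation as beta-specific.

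**Figure D5:**
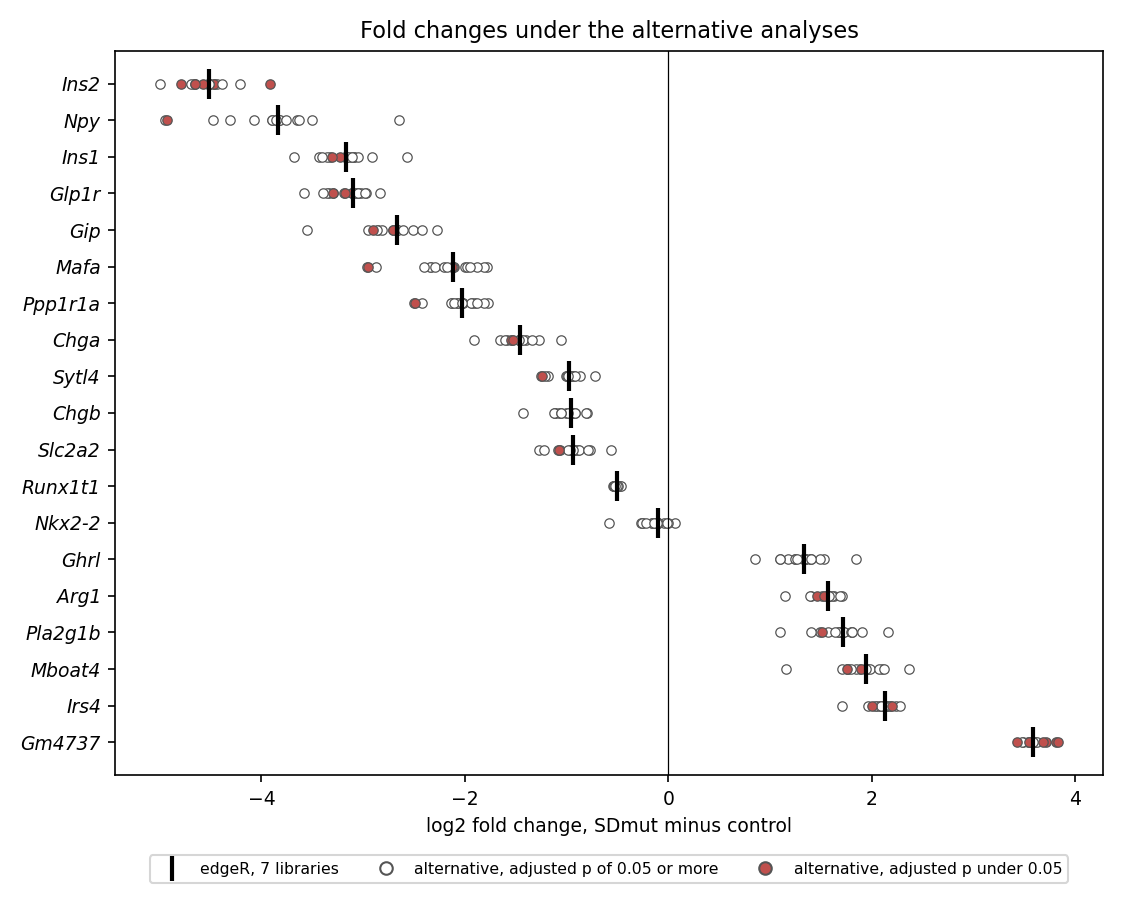
Log2 fold changes (SDmut minus control) of 19 genes in the edgeR fit of 7 libraries (bar) and in the alternative analyses (circles, filled where the adjusted p was under 0.05). Every gene shown other than Nkx2-2 kept its sign in all alternatives run, while few circles outside Ins2 and Gm4737 are filled.

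Across the 20 alternatives the log2 fold change of Ins2 ran from -4.99 to -3.92, that of Glp1r from -3.58 to -2.84 and that of Ghrl from 0.85 to 1.85. The adjusted p of these 3 genes reached 0.999995 in at least 1 alternative, so the sizes were steadier than the calls.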

How the data were processed

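Total RNA was extracted with RNeasy columns and made into Illumina TruSeq libraries, per the labels' protocols. The values used are whole-number gene counts, deposited by the authors and described in their accompanying file as raw read counts. The submitters' processing notes name STAR, Cufflinks, DESeq2, edgeR 3.20.9, limma 3.34.9, bedtools 2.17.0 and mm10, with no roles; the counting rule and strand setting are not given in the sources used here. The authors' deposited normalized signal equals the counts divided by a size factor and served as a check of the columns. The authors' deposited log2 fold changes and p-values of called genes (26 genes, 24 shared with the DESeq2 calls here) were used for that comparison alone. Site positions and their read densities on a log scale (taken as log2, with no base stated) are the authors' deposited values.

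The main test was edgeR 4.0.16 in R 4.3.3 (quasi-likelihood, TMM scaling, its default filter on low counts, no covariate, Benjamini-Hochberg adjustment over 18723 genes). DESeq2 1.42.0 and limma 3.58.1 were alternatives. In simulated counts DESeq2 made a larger share of false calls than edgeR. Those counts were drawn once, from edgeR's own dispersion estimates for the genes that its filter kept. They therefore do not show which tool is nearer the truth in these libraries. Depth was 38447596 to 41840638 counts per library. Label numbers were not taken as pairs. Named genes are Nkx2-2, preset core genes, listed genes with an unadjusted p under 0.05, the 10 largest called changes in each direction at 1 CPM or more, and the 5 largest non-overlapping changes in each direction at an unadjusted p under 0.01 and 5 CPM or more. Members, lists and tests were chosen with earlier results of these data known. Some members of the lists are counted but not reported here by name.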

Additional observations from a re-analysis of the deposited data

Results flagged for a closer look

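Of 143 values checked in the 4 SDmut libraries, 23 (16.1%) had 1 library far from the other 3 by Dixon's test. By chance a single value does so in about 1 of 20, but these values are not independent. Marker genes of a tissue move together and are counted again in their sums, and the lists were chosen with earlier results known. No excess over chance is therefore read from the share. SDmut 2 stood above the others in striated muscle genes: Acta1 at 1287 CPM, Myh3 at 1268, Mylpf at 529, Ckm at 429, Myl1 at 414, Ttn at 235, Myog at 97.6 and Myod1 at 30 CPM, with the muscle sum at 10785 CPM. It also stood above them for the gut gene Cdx2 (15.2 CPM), Cftr (7.03), Sox2 (1.21), Mafa (6.44), Ppp1r1a (3.22), the gut epithelium sum (95.4) and the sympathetic neuron sum (124). SDmut 1 stood above the others for the liver genes Afp (823 CPM) and Alb (793), the spleen gene Tlx1 (76.1), and the sums of liver (1780), spleen (117) and all neighbouring organ genes (1956). SDmut 3 stood below the others in the summed level of corepressor genes (969 CPM against 1140 to 1150).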

How the results depend on the processing

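With edgeR the number of genes called was 1; it was 2 with total library size, 0 with the replicate block by label number (219 genes at an unadjusted p under 0.05), 0 with Xist as covariate (658), 3 with a striated muscle covariate, and 0 to 2 on leaving out each library in turn. It was 0 without control 2 (298 at the unadjusted p), SDmut 1 (380) or SDmut 4 (369). DESeq2 called 25. Chosen after the data were seen, an epithelial covariate gave 9 and DESeq2 without control 3 and SDmut 2 gave 44. Beta-cell genes lower at an unadjusted p under 0.05 numbered 8, and 13 with only control 1, control 2, SDmut 1 and SDmut 2, which share a label number (1135 of all genes under that p in either direction there, against 475), 5 to 10 on leaving out each library, and 6 with the block. Same-numbered control and SDmut libraries correlated at -0.785 to -0.0924 in their deviations from the group means. Those with different numbers correlated at -0.681 to 0.816, with 0.723 for the muscle-bearing control 3 and SDmut 2. Such deviations also carry the tissue content of the libraries, so they do not show what the numbers mark. The log2 fold change of Nkx2-2 ran from -0.26 to 0.066 on leaving out each library, above 0 without control 1 alone, and was -0.59 (unadjusted p = 0.00916, adjusted 0.813) with the 4 libraries that share a label number. Of the values for 45 genes across alternatives, 841 kept side and direction, 49 became significant, 7 lost significance and 1 reversed; the adjusted p of 44 of the 45 reached 0.999995 in at least 1 alternative. Of list medians, 332 stayed within the spread and 28 moved. The causes were not tested. Precision is limited by 3 control and 4 SDmut libraries, and for genes under 1 CPM also by few counts.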
